A study of Mus musculus with 8 samples.

Results

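Fatty acid synthesis, storage and lipolysis genes were followed in cultured vascular smooth muscle cells of the mouse aorta, which contract the vessel wall, on 8 single-colour arrays. The genes were chosen by role, with earlier results of these data known. They were 45 listed symbols of lipogenesis, triglyceride synthesis, lipid droplets, lipases and fatty acid binding proteins. Of these, 43 were found among the 24704 genes with a symbol. Acsl1 and Fabp3 were not analysed here. There were 4 NFAT5-labelled arrays, titled AdN5 and described as overexpressing NFAT5, and 4 control arrays, titled AdPl. Cells of both groups had been infected with adenovirus for 24 h and then given cholesterol at 10 µg/ml for 72 h, so virus and cholesterol were common to all 8 arrays, and the comparison asks what NFAT5 adds to them. The sources used here do not give strain, age, passage or the promoter of the virus. Nothing in the labels says that replicates were separate cultures, so each p-value measures the spread between these samples only, and that spread may be technical.

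Smooth muscle cells that take up lipid can turn into foam cells, which hold fatty acids as triglyceride and cholesteryl ester in lipid droplets. Fatty acids are built from acetyl-CoA, lengthened and desaturated, activated to acyl-CoA and joined to glycerol. Droplet proteins shield the store, and a chain of lipases releases the fatty acids again. SREBP factors, which are held back when sterols are plentiful, and LXR, which senses oxysterols, drive many synthesis genes, while PPAR factors drive many genes of storage and release. NFAT5 is best known as the factor that turns on genes of osmotic stress.

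The values are log2 levels after RMA, which gives all arrays the same distribution, with a median probe set at 3.76. Levels of different genes are not comparable on this scale, and a gene below the median is called dim here, since RMA compresses its differences. Nfat5 itself was at 7.06, 6.95, 6.98 and 6.88 on NFAT5-labelled arrays, against 7.06, 7.22, 7.11 and 7.25 on control arrays. The measured transcript was thus not raised where the label says overexpression (log2 fold change -0.19 ± 0.078, SE; limma adjusted p = 0.360; exact two-sided permutation p = 0.0571, with 0.0286 the smallest that 70 assignments allow). Whether this probe set reads the transgene was not tested; the groups are named by their labels, and every direction below rests on the labels. Of 10 smooth muscle markers 9 were above the median level in at least 1 group and 0 of the 10 passed the test. In 3 of the 10, or 30%, the groups did not overlap, against 8.78% of all genes and 14.5% of those above the median. Acta2 was lower on NFAT5-labelled arrays (log2 fold change -0.30), and Cnn1 (0.33) and Cald1 (0.078) were higher. The smooth muscle coactivator gene Myocd was dim in both groups (3.27 ± 0.17 and 3.30 ± 0.10, SD, n = 4 each).

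Of the 43 genes 2 fell and 0 rose on NFAT5-labelled arrays at an adjusted p under 0.05 in limma. They were Fabp7, a cytosolic fatty acid carrier, and Mgll, the lipase that takes the last fatty acid off glycerol. This is 4.65% of the genes, where 0.777% of all genes tested were called (0.413% lower and 0.364% higher). Smaller differences were more widespread. At an unadjusted p under 0.05 stood 18 of the genes, or 41.9%, against 12.5% of all genes. Of the 18, 13 were lower, where 6.29% of all genes were, and 5 were higher, where 6.24% were. In 14 genes, or 32.6%, the 4 NFAT5-labelled values did not overlap the 4 control values, against 8.78% of all genes. Of these, 11 were lower (4.56% of all genes were) and 3 higher (4.22%). Because the list was drawn up with earlier results of these data known, these shares describe the list and are no independent test of it.

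Brighter genes passed such rules more often, and 36 of the 43 had a mean above the array median, where 50.3% of all genes had one below it. Among these 36, 17 had an unadjusted p under 0.05, or 47.2%, against 17.4% of all genes above the median. Groups did not overlap in 14 of these 36, or 38.9%, against 14.5%, and 2 were called, or 5.56%, against 1.42%. The log2 fold change was below 0 for 22 genes, or 51.2%, against 49% of all genes, and above 0 for 21, and its median was -0.024 against 0.0042 over all genes. The mean level of the 43 genes was nonetheless lower on every NFAT5-labelled array (6.24 to 6.29) than on any control array (6.31 to 6.38), with a mean log2 fold change of -0.075. Without the 2 called genes, a comparison added after the values were seen, the array means overlapped, at 6.26 to 6.31 on NFAT5-labelled arrays and 6.29 to 6.36 on control arrays, and the mean log2 fold change was -0.036. The median size without regard to sign was 0.16, against 0.10 over all genes.

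**Figure D1:**
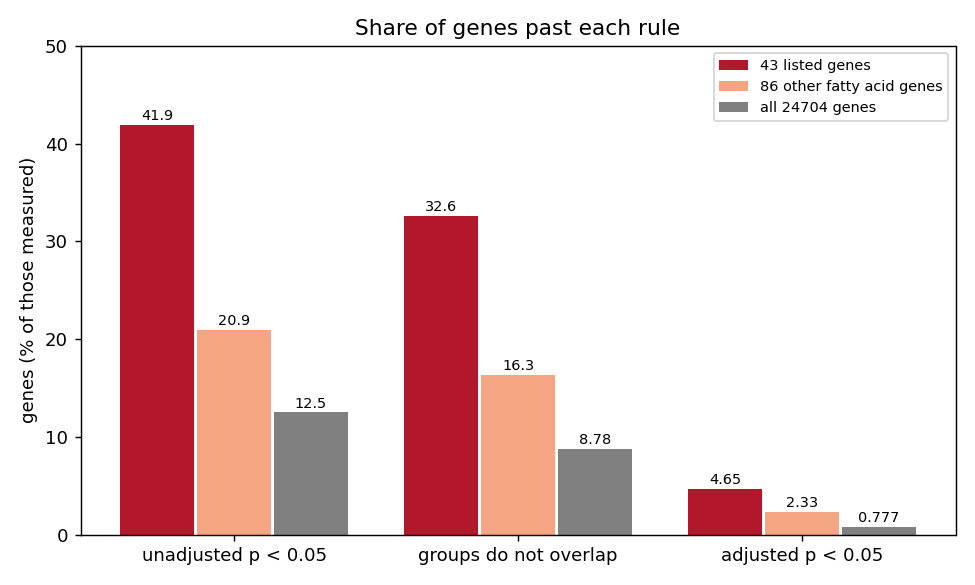
Share of genes (percent of those measured, y axis) past each of 3 rules, for the 43 listed genes, 86 other fatty acid genes and all 24704 genes. The listed genes stand at 41.9, 32.6 and 4.65%, above the 12.5, 8.78 and 0.777% of all genes. The lists were chosen with earlier results of these data known.

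**Figure D2:**
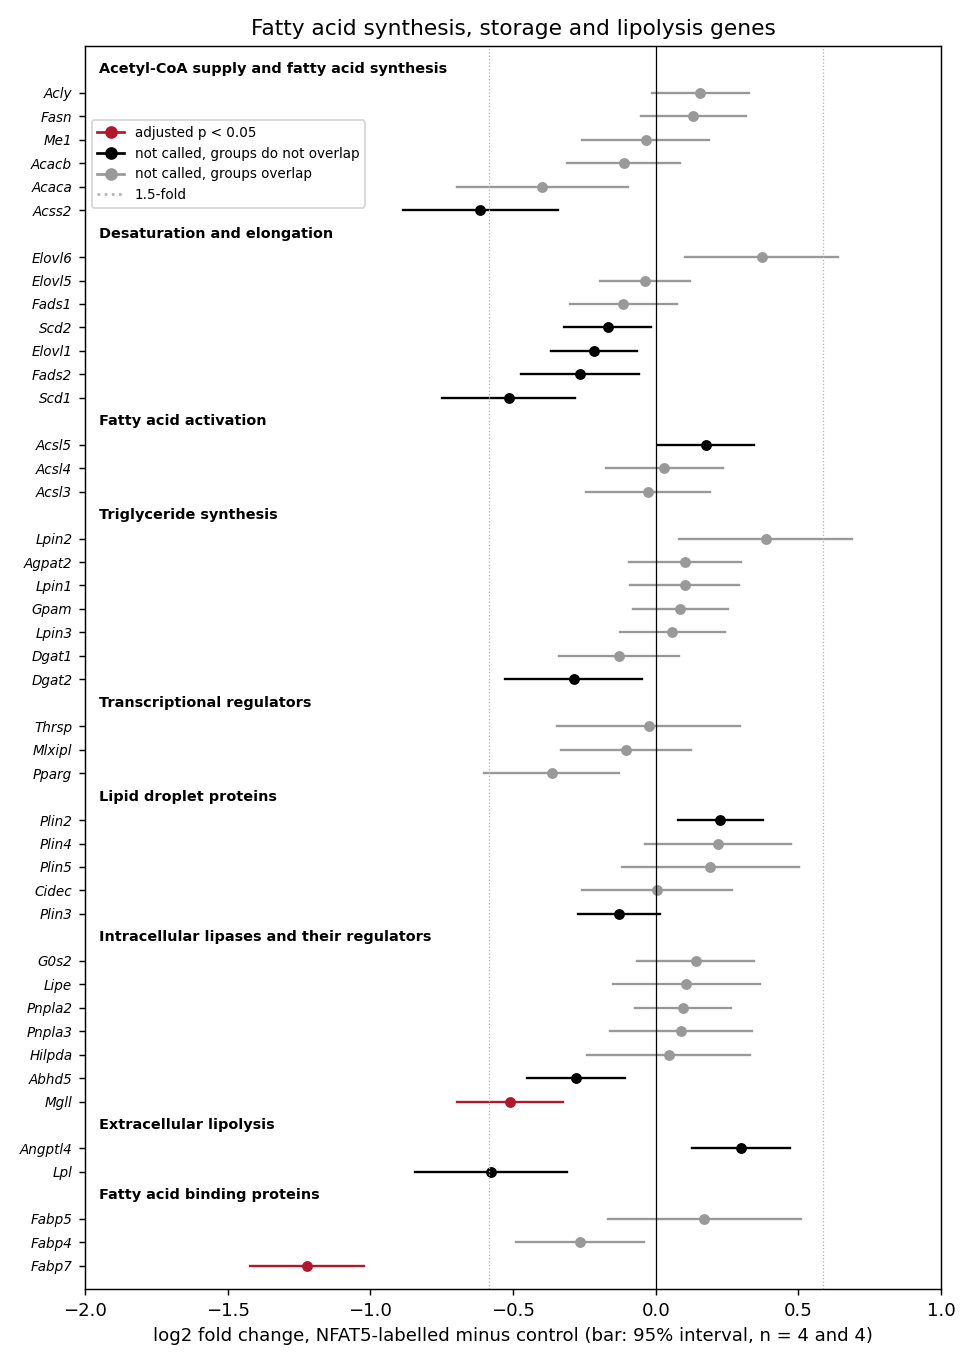
Log2 fold change of each gene, NFAT5-labelled minus control, with its 95% interval from limma (n = 4 and 4), by role. Fabp7 and Mgll, in red, passed the adjusted p, black marks the 12 further genes whose groups do not overlap, and dotted lines mark 1.5-fold.

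The enzymes that supply acetyl-CoA lay on opposite sides of control, and neither passed the test. Acss2, which makes acetyl-CoA from acetate, was at 5.35, 5.29, 5.60 and 5.16 on NFAT5-labelled arrays, against 6.13, 5.70, 6.03 and 5.98 on control arrays. All NFAT5-labelled arrays were below all control arrays, with 0.105 between the groups, and the log2 fold change of -0.61 ± 0.12 (SE), a level of 0.653 of control, missed the threshold (adjusted p = 0.0625). Acly, which makes acetyl-CoA from citrate, lay on the other side, at 7.97, 7.76, 7.86 and 7.88 against 7.71, 7.70, 7.65 and 7.79, with groups that overlapped and a log2 fold change of 0.16 ± 0.076 (adjusted p = 0.447).

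Acetyl-CoA carboxylase makes malonyl-CoA, the building block of the chain. Its cytosolic form Acaca was at 6.68, 6.42, 6.78 and 6.35 on NFAT5-labelled arrays and at 6.92, 6.94, 6.72 and 7.24 on control arrays. The groups overlapped only through NFAT5-labelled replicate 3 and control replicate 3, and the log2 fold change was -0.40 ± 0.13 (adjusted p = 0.257). The mitochondrial form Acacb had -0.11 ± 0.088. Fasn, the synthase that assembles palmitate, was at 7.44, 7.37, 7.33 and 7.22 against 7.28, 7.27, 7.07 and 7.21. Its log2 fold change of 0.13 ± 0.082 had a 95% interval from -0.05 to 0.32. Me1, a source of NADPH for synthesis, had -0.04 ± 0.099, with an interval from -0.26 to 0.19. Over these 6 genes 0 passed the test, and the median was -0.074.

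The enzymes that desaturate and lengthen fatty acids were the role group with the highest count of separated genes, 4 of 7. This is 57.1%, against 8.78% of all genes and 14.5% of those above the array median, where all 7 lay. By share, extracellular lipolysis was higher, at 2 of 2. All 4 were lower on NFAT5-labelled arrays, where 4.56% of all genes were, and 0 of the 7 enzymes passed the adjusted threshold. Scd1, the delta-9 desaturase that makes oleate, was at 7.18, 7.13, 7.30 and 6.90 on NFAT5-labelled arrays, against 7.59, 7.82, 7.55 and 7.62 on control arrays. The gap between the groups was 0.244, and the log2 fold change was -0.52 ± 0.10 (SE), with an interval from -0.75 to -0.28 and an adjusted p of 0.0666. Its paralog Scd2 was at 10.58, 10.53, 10.54 and 10.59 against 10.78, 10.78, 10.68 and 10.69. These groups also did not overlap, at a log2 fold change of -0.17 ± 0.068 with an interval from -0.32 to -0.02 (adjusted p = 0.346).

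Fads2, the delta-6 desaturase of polyunsaturated fatty acids, was at 9.48, 9.25, 9.08 and 9.34 on NFAT5-labelled arrays, against 9.54, 9.60, 9.55 and 9.53 on control arrays. The control arrays lay close together (SD 0.031) and the NFAT5-labelled arrays were spread (SD 0.17), which left 0.0496 between the groups and a log2 fold change of -0.27 ± 0.092 (adjusted p = 0.269). Its partner Fads1, the delta-5 desaturase, had overlapping groups and -0.11 ± 0.083. Among the elongases, Elovl1, which extends very long chains, was at 7.997, 8.09, 8.08 and 7.98 against 8.27, 8.23, 8.29 and 8.23, groups 0.146 apart with a log2 fold change of -0.22 ± 0.068 (adjusted p = 0.225). Elovl6, which lengthens palmitate to stearate, was the 1 gene of this group on the upper side. It was at 4.87, 5.05, 5.23 and 5.04 on NFAT5-labelled arrays and at 4.53, 4.92, 4.47 and 4.78 on control arrays, overlapping through control replicate 2, with a log2 fold change of 0.37 ± 0.12 (adjusted p = 0.236). Elovl5, the elongase of polyunsaturated chains, had -0.04 ± 0.070.

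Activation and triglyceride assembly showed smaller differences. Acsl5, an acyl-CoA synthetase, was at 7.55, 7.45, 7.38 and 7.32 on NFAT5-labelled arrays, against 7.28, 7.24, 7.20 and 7.27 on control arrays. The groups were 0.0371 apart, the closest of the 14 separated genes, at a log2 fold change of 0.18 ± 0.076 (adjusted p = 0.380). Acsl3, which feeds droplet growth, was at 5.25, 5.51, 5.41 and 5.28 against 5.54, 5.43, 5.20 and 5.39, with overlapping groups. Its log2 fold change of -0.03 and that of Acsl4 (0.03) had intervals within -0.25 to 0.24. In triglyceride synthesis Dgat2, which adds the last fatty acid, was at 6.23, 6.13, 6.20 and 6.28 against 6.79, 6.35, 6.34 and 6.52. The separation was 0.0605, control replicate 1 stood highest, and the log2 fold change was -0.29 ± 0.11 (adjusted p = 0.302). Dgat1, the other enzyme of this step, had -0.13 ± 0.094 with overlapping groups.

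Lpin2, a phosphatidate phosphatase that makes the diglyceride for that step, had the highest log2 fold change of the 43 genes, 0.38 ± 0.14 (adjusted p = 0.273). It was at 5.78, 5.27, 5.68 and 5.81 on NFAT5-labelled arrays and at 5.33, 5.40, 5.02 and 5.25 on control arrays, and NFAT5-labelled replicate 2 lay among the control values. The other lipins, Lpin1 (0.10) and Lpin3 (0.06), and the acyltransferase genes Gpam (0.09) and Agpat2 (0.10) had intervals between -0.13 and 0.30. Of the 7 genes of triglyceride synthesis 5 had a log2 fold change above 0, and 0 passed the test.

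The lipid droplet coat genes lay on both sides of control, and 0 of 5 passed the test. Plin2, the main coat protein of droplets outside fat cells, was at 9.51, 9.45, 9.51 and 9.55 on NFAT5-labelled arrays, against 9.31, 9.27, 9.24 and 9.30 on control arrays. All NFAT5-labelled arrays were above all control arrays by at least 0.137, and the log2 fold change was 0.23 ± 0.067, a level 1.17 times that of control (adjusted p = 0.197). Plin3, a coat protein that moves between cytosol and droplets, was at 7.77, 7.73, 7.73 and 7.73 against 7.86, 7.89, 7.86 and 7.87. Here the groups were apart on the lower side with the smallest spreads of the whole set (SD 0.019 and 0.015), at a log2 fold change of -0.13 ± 0.064 (adjusted p = 0.462). limma moderates each spread toward that of all genes, and the unadjusted p was 0.0738. Plin4 (0.22 ± 0.11) had overlapping groups, and Plin5 (0.19 ± 0.14), the perilipin of oxidative tissues, and the fat cell gene Cidec (0.0049 ± 0.12) were dim in both groups.

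**Figure D3:**
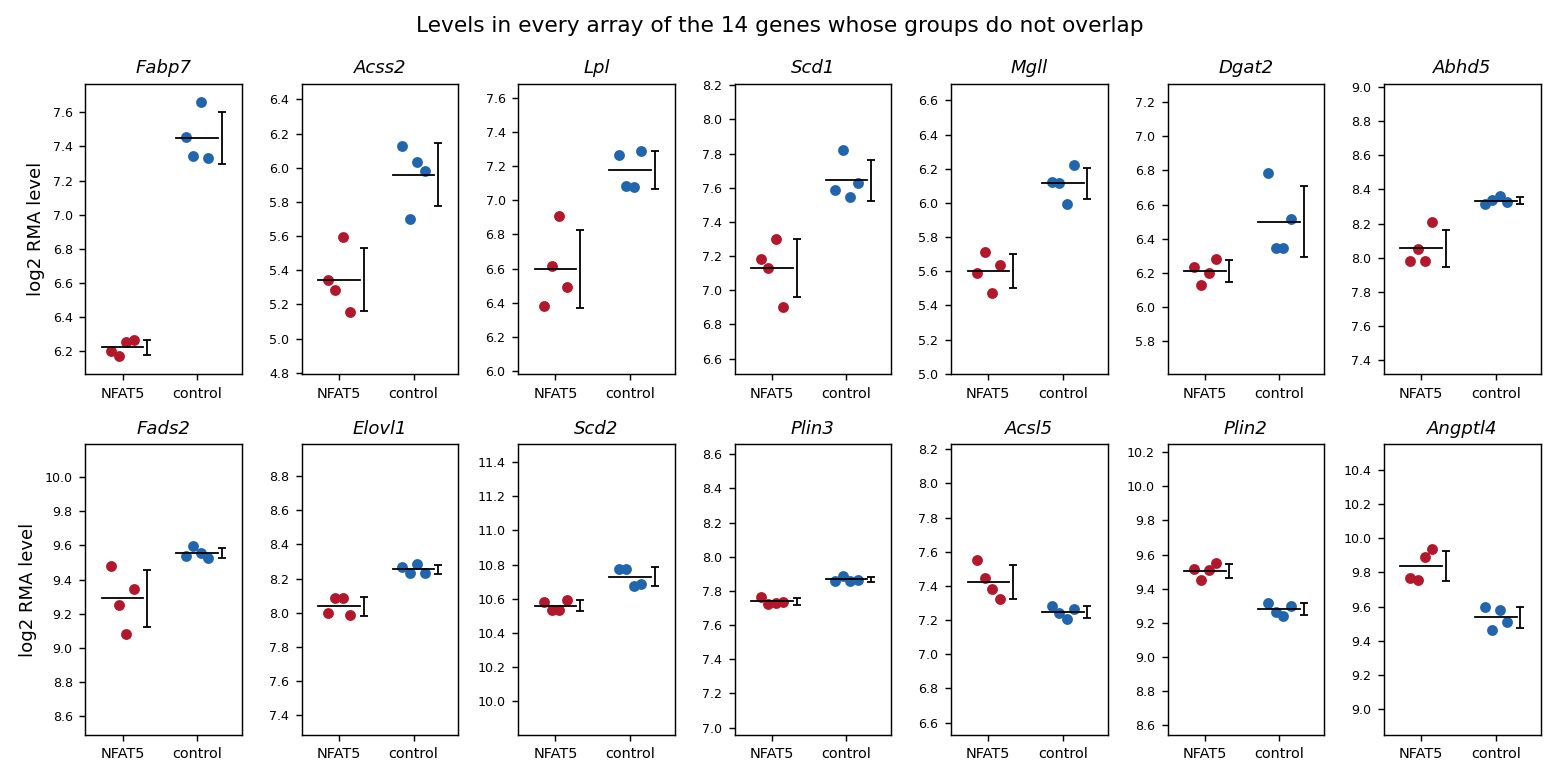
Log2 RMA level in every array of the 14 genes whose groups do not overlap, NFAT5-labelled left and control right, in order of log2 fold change. Lines are means, whiskers beside them are SDs (n = 4), and every panel spans the same range of log2 units. Fabp7 has the widest distance between its groups, 1.06, and Acsl5 the narrowest, 0.0371.

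Of the lipases and their regulators inside the cell, the last step was the one that fell. Mgll, the monoglyceride lipase, which also breaks down the endocannabinoid 2-arachidonoylglycerol, was at 5.59, 5.71, 5.47 and 5.64 on NFAT5-labelled arrays, against 6.12, 6.12, 5.995 and 6.22 on control arrays. The groups were 0.283 apart, and the log2 fold change of -0.51 ± 0.083 (95% interval -0.70 to -0.32), 0.702 of the control level, passed the threshold with an adjusted p of 0.0297 in limma. The call was lost whichever of the 8 arrays was left out, when the adjusted p lay between 0.0516 and 0.104 and the log2 fold change between -0.55 and -0.47.

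Abhd5, the coactivator of the triglyceride lipase Pnpla2, was at 7.98, 8.05, 7.98 and 8.21 on NFAT5-labelled arrays, against 8.31, 8.34, 8.36 and 8.33 on control arrays. The control arrays lay close together (SD 0.020) and the groups did not overlap, at a log2 fold change of -0.28 ± 0.077 (adjusted p = 0.171). Pnpla2 itself had 0.10 ± 0.075, with an interval from -0.07 to 0.26. Its inhibitor G0s2 was at 4.13, 4.31, 4.12 and 4.33 against 4.15, 4.17, 4.10 and 3.90, with a log2 fold change of 0.14 ± 0.092. Those groups overlapped, as did those of the inhibitor Hilpda (0.05 ± 0.13), of Lipe, the hormone-sensitive lipase (0.11 ± 0.12), and of the dim Pnpla3 (0.09 ± 0.11). So 5 of these 7 genes had log2 fold changes above 0, up to 0.14, and the 2 others lay below 0 with separated groups.

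Outside the cell, lipoprotein lipase and its inhibitor lay on opposite sides of control, and neither passed the test. Lpl, which frees fatty acids from lipoproteins, was at 6.38, 6.61, 6.91 and 6.49 on NFAT5-labelled arrays, against 7.26, 7.08, 7.08 and 7.29 on control arrays, groups 0.168 apart. The log2 fold change was -0.58 ± 0.12, or 0.670 of the control level, with an adjusted p of 0.0726. NFAT5-labelled replicate 3 was closest to the control arrays, and without it Lpl passed (-0.68, adjusted p = 0.0358). Without any other single array it did not pass (adjusted p 0.116 to 0.196 in limma). Angptl4, the secreted inhibitor of this lipase, was at 9.77, 9.76, 9.89 and 9.94 against 9.60, 9.46, 9.58 and 9.51. Its groups were apart by 0.158 on the upper side, with a log2 fold change of 0.30 ± 0.077, a level 1.23 times that of control (adjusted p = 0.143).

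The fatty acid binding proteins, small cytosolic carriers of fatty acids, held the smallest p-value of the 43 genes. Fabp7, the brain-type carrier known from radial glia, was at 6.20, 6.18, 6.26 and 6.27 on NFAT5-labelled arrays, against 7.46, 7.34, 7.66 and 7.33 on control arrays. The groups were 1.06 apart, and the NFAT5-labelled arrays varied little (6.23 ± 0.044 against 7.45 ± 0.15; SD, n = 4 each). The level fell to 0.429 of control, a log2 fold change of -1.22 ± 0.089 (95% interval -1.42 to -1.02, adjusted p = 6.56e-04 in limma), which ranked 5 by p-value and 11 from the lowest fold change among the 24704 genes. The call held without each array in turn (adjusted p at most 0.00449, log2 fold change -1.26 to -1.15).

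Neither of the other carriers analysed passed the test. Fabp4, the carrier of fat cells, macrophages and endothelium, was at 5.12, 5.01, 5.33 and 5.27 on NFAT5-labelled arrays and at 5.52, 5.28, 5.59 and 5.41 on control arrays. The groups overlapped, and the log2 fold change of -0.27 ± 0.10 did not pass (adjusted p = 0.307). Its interval, from -0.49 to -0.04, and that of Fabp5, the epidermal-type carrier (0.17 ± 0.15, -0.17 to 0.51), did not reach the interval of Fabp7. Fabp5 was at 3.31, 3.86, 4.03 and 3.76 on NFAT5-labelled arrays and at 3.39, 3.49, 3.71 and 3.69 on control arrays. Its means were dim in both groups, and its SD of 0.31 was the widest of the 43 genes on NFAT5-labelled arrays.

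The RefSeq promoter table of GRCm38.p6 held 48 windows for 34 of the 43 genes. The 250 bases before the annotated start are shown for the genes that fell, Fabp7 and Mgll, of which Mgll has 2 annotated starts, and for the synthesis genes with the lowest and highest log2 fold change, Acss2 and Acly. They are printed 5′ to 3′ on the strand of the gene, with matches to 5 motifs in capitals. The motifs, searched on both strands, were the sterol regulatory element core CACCCCAC, the NF-Y box CCAAT, the E-box CACGTG, the NFAT5 element core TGGAAA and the PPAR half-site AGGTCA. None of the motifs contains another.
Fabp7, chr10:57784673-57784922, plus strand: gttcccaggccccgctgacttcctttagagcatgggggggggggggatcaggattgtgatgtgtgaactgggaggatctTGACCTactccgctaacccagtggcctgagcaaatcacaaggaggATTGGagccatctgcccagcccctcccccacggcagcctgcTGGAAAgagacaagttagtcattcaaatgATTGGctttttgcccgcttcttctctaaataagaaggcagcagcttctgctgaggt
Mgll, first start, chr6:88724162-88724411, plus strand: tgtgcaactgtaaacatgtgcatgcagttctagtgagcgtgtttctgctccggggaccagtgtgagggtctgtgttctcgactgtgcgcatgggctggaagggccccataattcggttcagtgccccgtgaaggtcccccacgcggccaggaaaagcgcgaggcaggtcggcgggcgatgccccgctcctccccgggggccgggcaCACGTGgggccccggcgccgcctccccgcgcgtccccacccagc
Mgll, second start, chr6:88724454-88724703, plus strand: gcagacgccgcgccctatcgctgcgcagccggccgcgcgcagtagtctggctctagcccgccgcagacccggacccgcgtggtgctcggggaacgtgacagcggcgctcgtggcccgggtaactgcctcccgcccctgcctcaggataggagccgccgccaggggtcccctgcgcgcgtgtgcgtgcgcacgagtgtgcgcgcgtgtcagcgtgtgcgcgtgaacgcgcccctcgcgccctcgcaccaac
Acss2, chr2:155517793-155518042, plus strand: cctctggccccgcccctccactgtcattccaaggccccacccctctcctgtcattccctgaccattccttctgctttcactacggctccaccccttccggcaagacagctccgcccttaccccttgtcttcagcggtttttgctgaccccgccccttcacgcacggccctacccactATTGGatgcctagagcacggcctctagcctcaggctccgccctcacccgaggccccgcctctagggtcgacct
Acly, chr11:100528001-100528250, minus strand: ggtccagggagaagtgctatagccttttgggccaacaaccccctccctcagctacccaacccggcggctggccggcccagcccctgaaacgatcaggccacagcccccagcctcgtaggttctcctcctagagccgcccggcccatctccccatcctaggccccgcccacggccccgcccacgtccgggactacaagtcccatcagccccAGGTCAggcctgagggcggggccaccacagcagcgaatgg

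In the Fabp7 window the NFAT5 core lay at -85 to -80 from the start, with NF-Y boxes on the other strand at -126 to -122 and -56 to -52 and a PPAR half-site on the other strand at -171 to -166. The first Mgll window held an E-box at -44 to -39 and the second held 0 of the motifs. The Acss2 window held 1 NF-Y box and the Acly window 1 PPAR half-site. Over all 32851 windows of this length, 18.6% held the NFAT5 core, 33.8% the NF-Y box, 6.02% the E-box, 14% the PPAR half-site and 2.58% the sterol core. Of the 48 windows of the listed genes 5, 20, 5, 11 and 2 did, in the same order, or 10.4, 41.7, 10.4, 22.9 and 4.17%. Fabp7 shared the NFAT5 core with Acaca, G0s2, Lpin1 and Plin3. A match describes these letters only and is no evidence of binding.

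The transcriptional regulators among the genes were weakly measured. Pparg, the master regulator of fat storage, was at 3.45, 3.79, 3.46 and 3.51 on NFAT5-labelled arrays, with a dim mean, and at 4.06, 3.74, 3.91 and 3.98 on control arrays. The groups overlapped through NFAT5-labelled replicate 2 and control replicate 2, and the log2 fold change was -0.36 ± 0.10 (adjusted p = 0.184). The glucose sensor gene Mlxipl, encoding ChREBP, had -0.11 ± 0.10. Thrsp, a lipogenic regulator, was at 2.08, 2.30, 2.38 and 2.80 against 2.47, 2.54, 2.25 and 2.39, with -0.02 ± 0.14. Both genes were dim in both groups.

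**Figure D4:**
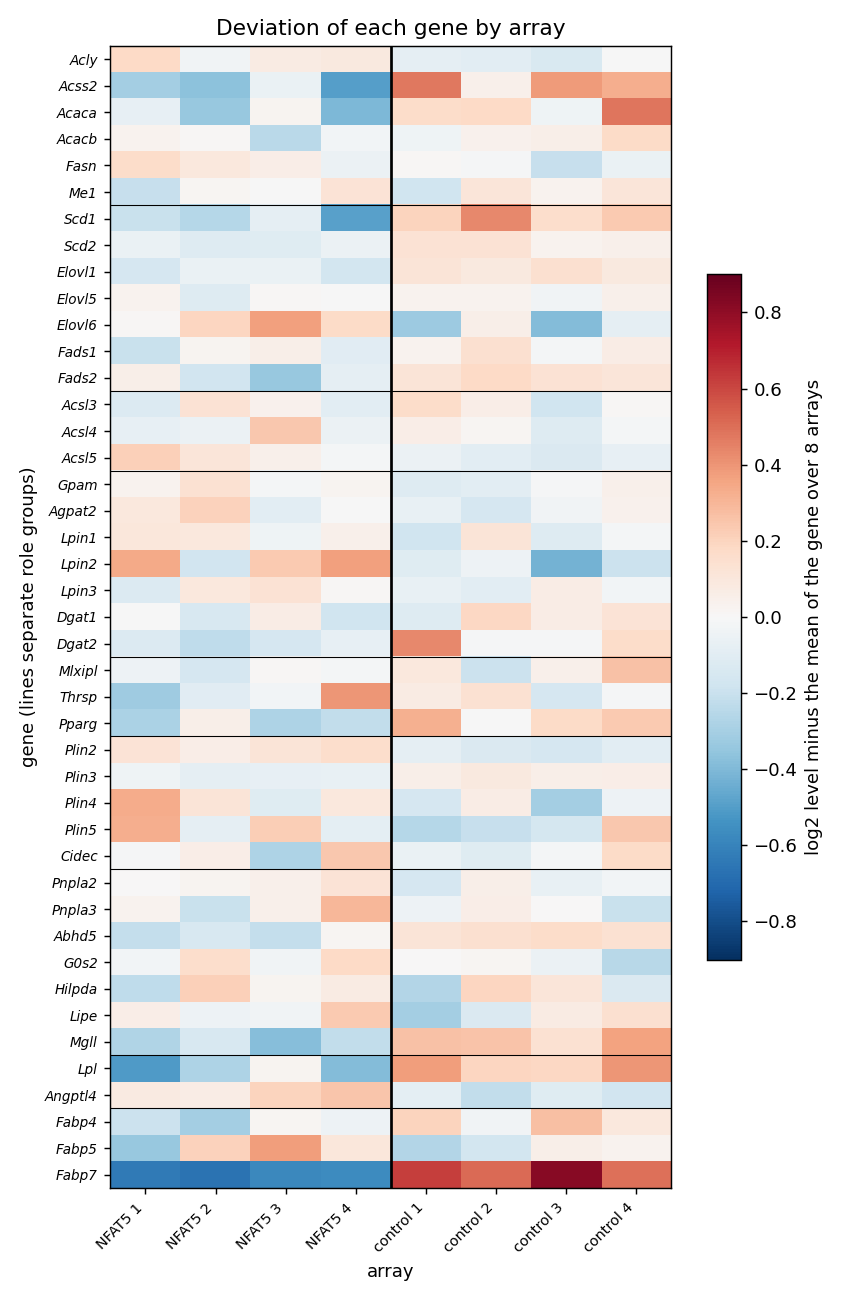
Log2 level of each of the 43 genes in each array minus the mean of that gene over the 8 arrays, NFAT5-labelled arrays left of the black line and control arrays right, rows in order of role. Fabp7, Mgll, Scd1 and Acss2 lie below their mean on every NFAT5-labelled array and above it on every control array, with some pale cells for Acss2 and Scd1. Lpl does so apart from NFAT5-labelled replicate 3, which is near white.

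The median SD between replicates of the 43 genes was 0.12 on NFAT5-labelled arrays and 0.12 on control arrays, against the wider 0.16 and 0.14 over all genes. The SD was larger on NFAT5-labelled arrays than on control arrays for 27 of the 43, or 62.8%, against 54.6% of all genes. The 4 against 4 design bounded most of the genes that were not called. Of these 41 genes 34 had a 95% interval wholly within 1.5-fold in either direction. Over all genes, called ones included, the share was somewhat larger, 87.1%. Among the 34 were the 6 genes dim in both groups, whose differences RMA compresses, so their intervals bound less. The 7 whose interval reached further were Acss2, Acaca, Scd1, Elovl6, Lpin2, Pparg and Lpl, so for them a change above 1.5-fold was within the interval.

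Of 86 other measured genes of fatty acid handling, also chosen by role with earlier results known, 1 rose and 1 fell. This is 2.33%, against 0.777% of all genes and 1.42% of those above the array median. Cd36, a fatty acid translocase and scavenger receptor, was at 6.42, 6.64, 6.86 and 6.45 on NFAT5-labelled arrays, against 5.89, 5.66, 5.44 and 5.995 on control arrays (log2 fold change 0.85 ± 0.14, adjusted p = 0.0313). Insig1, which retains the SREBP escort protein in the endoplasmic reticulum and is itself an SREBP target, was at 6.96, 6.98, 6.89 and 6.92 against 7.49, 7.53, 7.34 and 7.35 (-0.49 ± 0.076, adjusted p = 0.0243). Neither pair of groups overlapped. The call of Cd36 was lost whichever array was left out (adjusted p 0.0548 to 0.102), and that of Insig1 was kept without 1 of the 8 arrays, control replicate 3 (0.0473 to 0.0862 over the 8).

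Around Insig1, its list of 9 sterol-regulated factors and partners had 7 log2 fold changes below 0 and a median of -0.070. At its upper end Scap, the escort protein itself, had 0.32 ± 0.074 with separated groups (adjusted p = 0.107). The SREBP genes, named after their values were seen, were at -0.0034 ± 0.086 for Srebf1, with an interval from -0.20 to 0.19, and at -0.19 ± 0.11 for Srebf2. Nr1h3, encoding LXR-alpha and named likewise, had -0.41 ± 0.13 with overlapping groups (adjusted p = 0.223).

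The remaining lists had medians from -0.0092 to 0.048 and, apart from Cd36, 0 called genes. Among precursor enzymes the ends were Idh1 (-0.19), a cytosolic source of NADPH, and Acss1 (0.14), the dim mitochondrial acetyl-CoA synthetase. Among other elongases and desaturases they were Elovl4 (0.36) and Fads6 (-0.35). In glycerolipid synthesis they were the acyltransferases Agpat5 (0.25) and the dim Gpat2 (-0.084). In uptake and binding the lower end was Dbi, the acyl-CoA binding protein (-0.36 ± 0.082, adjusted p = 0.102), with separated groups. Among droplet genes the ends were Hsd17b11 (0.36) and the dim Pnpla1 (-0.31). Among fat cell regulators they were Ppard (0.30), another PPAR, and Ebf1 (-0.34), an adipogenic factor. An unadjusted p under 0.05 was found for 18 of the 86, or 20.9%, against 12.5% of all genes and 17.4% of those above the array median. Of the 18, 12 were lower and 6 higher. The median log2 fold change of the 86 was -0.0033, and 53 of them were above the array median in both groups.

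Genes used as markers of other cell types differed between the groups too, and several genes above are also known from those cell types. All 12 macrophage markers had log2 fold changes above 0, their mean level ran from 6.18 to 6.36 on NFAT5-labelled arrays and from 5.82 to 5.98 on control arrays, and Adgre1 (0.68), Laptm5 (0.53) and Cd68 (0.52) rose. The pan-leukocyte gene Ptprc was the 1 macrophage marker dim in both groups. Of 11 fibroblast or adventitial markers 9 were below 0, with means from 5.65 to 5.74 against 5.96 to 6.02, and Ly6c1, dim on NFAT5-labelled arrays, fell (-1.24). Whether the smooth muscle cells themselves or other cells made these marker transcripts was not tested. Nor was any part of other cells in the values of Plin2, Cd36, Lpl, Fabp4, Pparg, Mgll or Fabp7. In bulk RNA, fewer cells of a type and less RNA per cell cannot be told apart.

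The other marker lists had overlapping means. The 6 adipocyte markers outside the listed genes were all dim in both groups, with means from 2.58 to 2.73 against 2.58 to 2.64. Of 6 Schwann or glial markers, cells known for Fabp7, 5 were dim in both groups, with means from 3.00 to 3.18 against 2.96 to 3.23 and 0 called. The 10 endothelial markers had means from 4.23 to 4.51 against 4.31 to 4.48, also with 0 called.

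**Figure D5:**
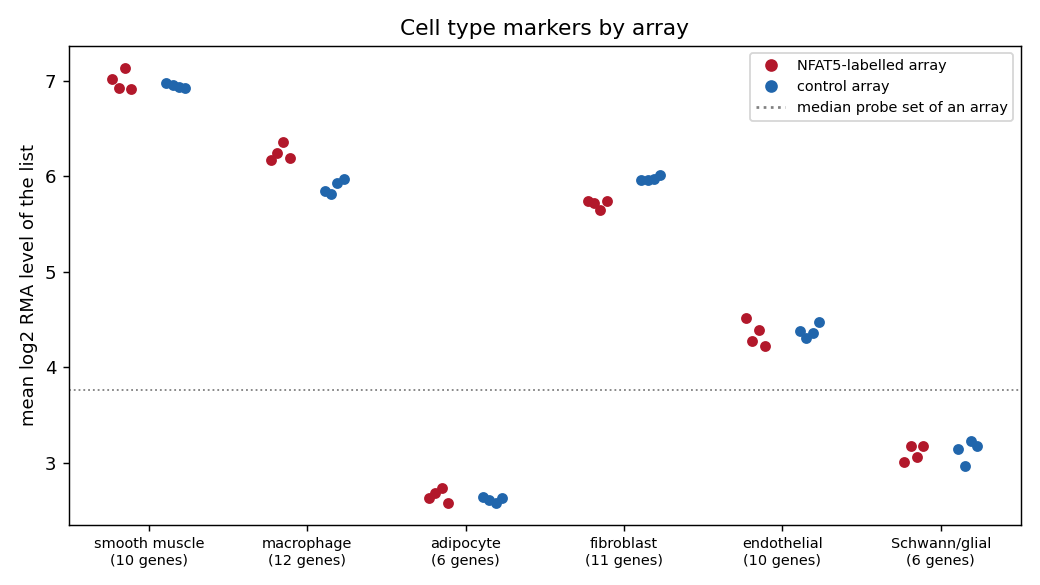
Mean log2 RMA level of each cell type marker list (y axis) in every array, NFAT5-labelled in red on the left and control in blue on the right. The dotted line is the median probe set of an array. The macrophage means run from 6.18 to 6.36 against 5.82 to 5.98 and the fibroblast means from 5.65 to 5.74 against 5.96 to 6.02, without overlap.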

How the data were processed

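Total RNA of 8 samples was hybridised to single-colour Affymetrix arrays. The authors deposited log2 values; the submitters' processing notes name RMA as the tool, without a version. RMA corrects background, quantile normalises the arrays and summarises probe sets, so a shift of all genes in 1 direction is not visible. Neither a genome build nor a probe set annotation is named in the labels. All 8 arrays had a median of 3.76. Precision is set by the number of arrays.

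Of 25428 probe sets, the supplied annotation named 24705 and left 723 unnamed. For a repeated symbol the brightest probe set was kept, and 43 of the 45 listed genes were found by symbol in that annotation, each with 1 probe set; unnamed probe sets were not matched to genes. No filter was applied. Arrays were grouped by title and compared with limma 3.58.1 under R 4.3.3 (functions lmFit and eBayes, 4 against 4, no covariates, two-sided), with Benjamini-Hochberg adjustment over all 24704 genes and a threshold of 0.05. Python 3.11.15 searched promoters and drew figures with matplotlib 3.10.9.

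The members and lists were chosen with earlier results of these data known. Values in every array are given by rule for genes that were called, had separated groups or lay at an end of their role group, and for Acaca, Fasn and Fabp4 by choice after their values were seen. Other fatty acid genes named are those called and those at either end of each list. Tried as alternatives were a block for the replicate number, median centring, filters at the lower quartile and median, robust estimation with a variance trend, weights per array, every probe set, stricter thresholds and each array left out.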

Additional observations from a re-analysis of the deposited data

Results flagged for a closer look

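Acsl4, an acyl-CoA synthetase that prefers arachidonate, was flagged because NFAT5-labelled replicate 3 stood at 7.46, far from the other NFAT5-labelled arrays at 7.15 to 7.17. The distance was 0.929 of the range of the 4 arrays, past Dixon's 95% critical value for 4 samples. Among the 43 genes and 2 groups, 86 sets of 4 arrays were examined and 1 was flagged, where chance flags about 1 in 20.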

How the results depend on the processing

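Fabp7 kept its call under every alternative run. Of the 22 single genes followed through the alternatives, 0 turned their direction, which was largely fixed in advance. Apart from Nfat5, they were picked for being called, having separated groups or an unadjusted p under 0.05 in limma. The block, the filters, the variance trend and the use of every probe set also leave each fold change as it was. The count of listed genes called, 2, where 0.777% of all genes were, was 1 with the replicate block (14 over all genes, 0.0567%). Among the 18528 genes above the lower quartile it was 4 of 42, where 274 genes, or 1.48%, were called. Among the 12352 genes above the median of all genes it was 6 of 37, where 497, or 4.02%, were called. The count was 11 with a variance trend and robust estimation (781 over all genes, 3.16%). It was 1 at an adjusted p under 0.01 (42, 0.17%) and 1 at 1.5-fold or more (110, 0.445%). With each array left out it ran from 1 to 2, and over all genes from 56 to 88. The 11 were 9 lower genes, Fabp7, Mgll, Acss2, Scd1, Scd2, Lpl, Abhd5, Fads2 and Elovl1, and 2 higher, Plin2 and Angptl4. Without NFAT5-labelled replicate 4 and control replicate 3 together, arrays at 1 end of the second principal component and an alternative chosen after seeing the data, 1 listed gene and 30 genes in all were called. The listed genes at an unadjusted p under 0.05 were 13 there (30.2%, against 11.6% of all genes), and 14 to 18 with 1 array left out. The other fatty acid genes called, 2, were 0 with the block and without that pair of arrays, and 0 to 1 with 1 array left out. They were 6 above the median and 8 with the trend, where 4.02% and 3.16% of all genes tested were called. Listed genes with separated groups, 14, were 15 to 19 with 1 array left out, as fewer arrays must give at least as many. The same holds over all genes, whose share was not computed there, so the rise says nothing about the listed genes. The median log2 fold change of the listed genes, -0.024, ran from -0.043 to 0.027 with 1 array left out and was -0.065 without the pair, so it has no settled sign. The cause of these shifts was not tested. Arrays with the same replicate number did not deviate together (correlations -0.079 to 0.055), and the labels give them only a number in common. Why calls were lost under the block was not tested. RMA leaves no depth, and dim genes limit what can be seen.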
